A study of Mus musculus with 12 samples.

Results

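RNA immunoprecipitation of RBM25 from mouse inner ear organoids gave 1 library, the first RBM25 immunoprecipitate from Rbm25-depleted organoids, with many sites that none of the other 7 IP and IgG libraries listed. When the sites of the 8 immunoprecipitation and IgG lists were merged wherever they overlapped by 1 bp or more, 1548 regions resulted. Of these, 399 (25.8% of all regions) held a site of that library and of none of the other 7. These 399 regions, each made of 1 site, lay in 274 genes and are described here. The regions were chosen by which lists held a site at them, so the count and every value of that library at these sites are a description, with no test.

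Cells of the cochlear epithelium of mice on postnatal day 1 or 2 had been dissociated, expanded as organoids in Matrigel and then differentiated. They received a control lentivirus (genotype label WT) or a lentivirus against RBM25, called a knockdown in the treatment text and Rbm-KO in the titles and here "depleted". Each of these 2 conditions had 2 numbered replicates, and each replicate had an IP library made with the RBM25 antibody, a library made with IgG in its place and one labelled Input, which makes 6 groups of 2 and 12 libraries. The labels do not say whether replicates came from separate animals or cultures, which cells took up the virus, or how much RBM25 remained.

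RBM25 is an RNA-binding protein of the nucleus that takes part in pre-mRNA splicing and in the choice of splice sites. In human cells it is known to associate with U1 snRNP components and to bind a CGGGCA element in the pre-mRNA of the apoptosis regulator Bcl-x. In RNA immunoprecipitation, RNA that comes down with the protein is sequenced, and the IgG library measures what comes down with an antibody that has no target in the cells. In such bulk samples, fewer cells of a type and less RNA per cell cannot be told apart.

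The site coordinates, printed counting from 1, fitted the GRCm38 mouse build, and 4 of the 399 regions had their 5′ edge exactly at an annotated RefSeq transcript start. The first 30 transcribed bases at those starts are shown because they fix where these sites begin on the RNA, and the start covered by the region with the highest fold is added. The capital marks the first transcribed base, and the sequences are from RefSeq, build GRCm38.p6, read 5′ to 3′ on the gene's strand.
Ndufs7: Agaggttgtctgaaggccgaggccaagatg
Ssbp4: Ggcgcgcttcccggaacagcccggggaggg
Grsf1: Acttcccctccgctcgcgccacagcggcca
Fibp: Gaactcccggaagtcgctctgcggctactc
Sephs2: Aggcagcgtggctcgagtcctccggtccgg
Ndufs7 encodes a subunit of mitochondrial complex I, and its region at chr10:80249312-80249491 (plus strand) began 137 bp upstream of the start. The Ssbp4 region, chr8:70608125-70608314 on the minus strand, belongs to a gene of the single-stranded DNA-binding protein family. Grsf1, whose region was chr5:88675914-88676171 (minus strand), encodes a binder of G-rich RNA. Fibp encodes an intracellular protein that binds a fibroblast growth factor, and its region was chr19:5460607-5460778 (plus strand). The Sephs2 region, chr7:127273860-127274059 on the minus strand, belongs to a selenophosphate synthetase gene.

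The authors' fold enrichment, the ratio of a site to the background of their peak caller, was 4063 at the Ndufs7 start, 1875 at Ssbp4, 1654 at Grsf1, 538 at Fibp and 456 at Sephs2. Each of these 5 sites carried the authors' false discovery rate of 1.82%. In all, 19 of the 399 regions overlapped the promoter window of their own gene, from 250 bases before to 50 after a RefSeq start, and 10 covered the start itself. Among the other 414 sites of the same list, 18 overlapped such a window, 6 covered the start and 3 had their edge exactly on it. Both sets thus held a few sites at transcript starts, in similar numbers.

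The CGGGCA element was searched in these windows on both strands, with no other motif and with overlapping matches on the opposite strands counted once per window. On the gene's own strand it occurred in 2182 of all 32851 RefSeq windows (6.64%) and in 21 of the 292 windows of genes with a region listed only by depleted IP 1 (7.19%). On either strand the counts were 4001 windows (12.2%) and 53 windows (18.2%). The 19 genes whose region overlapped a window had 30 windows in all, overlapped or not. These held it in 0 windows on the gene's own strand and in 5 on either strand (16.7%). The first 50 transcribed bases had a median GC content of 56% over all windows, 68% over the 292 windows and 64% over the 30. GC content thus moved with the counts on either strand. Its part in them was not tested. A window that lacks the letters says nothing about RBM25 binding elsewhere in the RNA, and the sequence inside the other regions was not analysed here.

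The lists differed in length and in how much of each was its own. Depleted IP 1 listed 813 sites and depleted IP 2 listed 165, against 594 and 593 in control IP 1 and 2, 442 and 430 in the control IgG lists, and 498 and 511 in the depleted IgG lists. The lists carry no read counts, so the depth behind each is unknown. The 399 regions were 49.1% of the regions of depleted IP 1 (95% Clopper-Pearson interval 45.6 to 52.6%, for the counting of regions only). Depleted IP 2 held 83 regions of its own, 5.36% of all 1548 and 50.3% of its much shorter list (42.4 to 58.2%). The control IP lists each held 8 of their own (0.517% of all regions). The control IgG lists held 32 (2.07%) and 34 (2.2%), and the depleted IgG lists 1 (0.0646%) and 4 (0.258%), so most of what those 6 libraries listed recurred elsewhere. The replicate library, depleted IP 2, shared 6 of the other 414 regions of depleted IP 1.

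**Figure D1:**
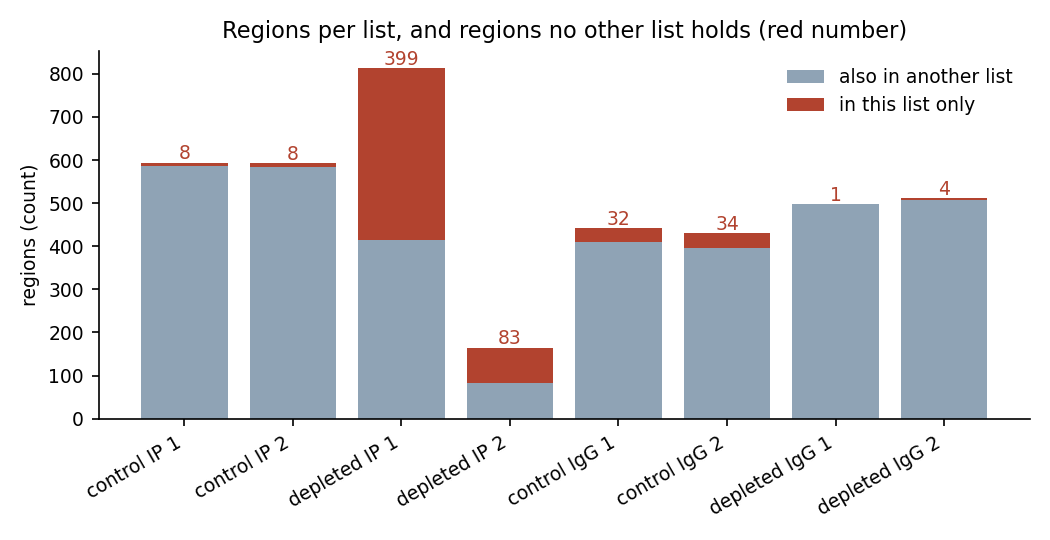
Regions in each of the 8 lists (vertical axis, count), split into regions that another list also held (grey-blue) and regions of that list only (red, with the number above the bar). Depleted IP 1 stands out with 399 regions of its own, followed by depleted IP 2 with 83, while the other lists hold between 1 and 34.

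The remaining 414 regions of depleted IP 1 were shared mainly with IgG libraries. A depleted IgG list held 374 of them (90.3%), with 349 in depleted IgG 1 and 357 in depleted IgG 2. Control IgG 1 and 2 held 235 and 231, and control IP 1 and 2 held 135 and 140. The library thus had many sites that IgG libraries listed as well, beside the 399 that none listed. All 399 sites stood at the same coordinates in the list labelled depleted Input 1, together with 65 of the other sites. None of the 399 stood in the other 3 Input lists. Every one of the 464 sites in depleted Input 1 had the coordinates of a depleted IP 1 site. The highest peak number, 1407, and the lowest false discovery rate, 1.76%, were also the same in both lists. Depleted Input 1 thus repeated part of the IP list and was not used as a separate measurement.

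Fold at the 399 sites ranged from 3.39 to 5522, with a median of 305 (95% interval of the median 244 to 375) and a middle range of 89.5 to 938. At the other 414 sites the median was 426, the middle range 84.4 to 1880.1 and the highest value 23738. The 2 distributions overlapped over nearly their whole range, and the sites above 5522 were all shared with another list. A fold of 1000 or more was given to 94 of the 399 and to 151 of the 414, and a fold under 10 to 12 and 19.

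**Figure D2:**
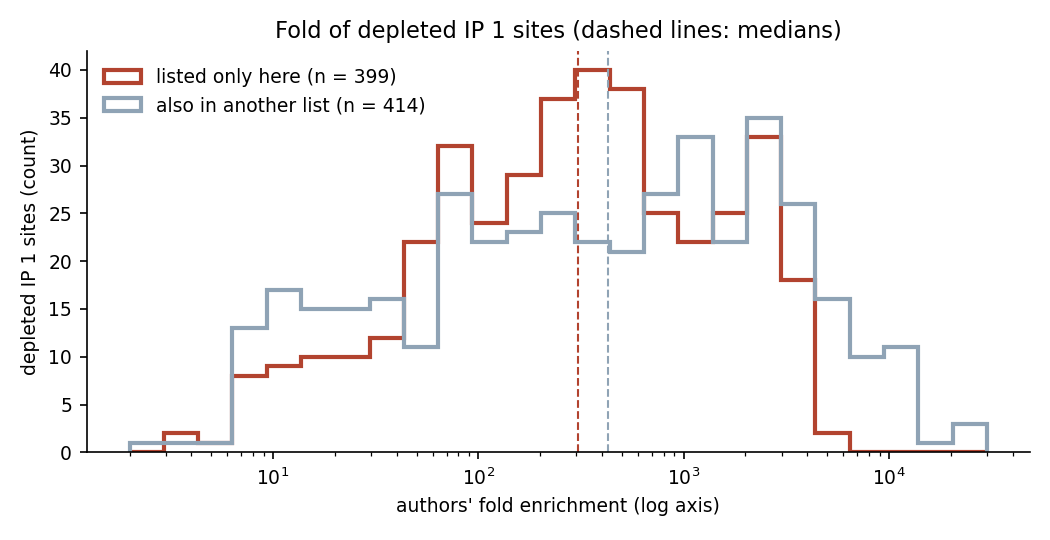
Number of depleted IP 1 sites (vertical axis) by the authors' fold enrichment (horizontal log axis), for the 399 sites listed only there (red) and the 414 also in another list (grey-blue). The dashed lines are the medians, 305 and 426, and the shared sites extend further at both ends.

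The authors' false discovery rate was under 5% at 304 of the 399 sites (76.2%, interval 71.7 to 80.3%) and at 261 of the 414 (63.0%, 58.2 to 67.7%). It was 100% at 18 of the 399 (4.51%) and at 79 of the 414 (19.1%). The value 1.82% recurred at 244 and 257 sites, so it carried little rank within the list. No site of the other 7 lists was under 5%, where the lowest value was 8.33%, and a rate from 1 list cannot be set against that of another. For the 264 regions listed by both control IP libraries and no other, the counterpart in control organoids, the lowest rate was 16.2% and the median fold in control IP 1 was 258.

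Sites were short. The median width was 109 bp (middle range 60 to 205.5 bp) against 135 bp at the other sites, and 22 of the 399 were under 20 bp wide against 13 of the 414. The extremes were a region of 1 bp in Ndufs7 and a region of 927 bp in mt-Nd2, a mitochondrial gene of complex I. The most common width in the list was 200 bp, which 22 of the 399 had within 1 bp, and 265 were narrower still.

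Rbm25 itself, the targeted gene, held 2 of the 399 regions. The first, chr12:83664140-83664259, had a fold of 1237, and the second, chr12:83668092-83668173, one of 1873. Both carried the rate of 1.82% that was usual in the list. None of the other 7 lists held a site in Rbm25, and the nearest site of another list was 654763 bp away. A site in the IP of depleted organoids does not give the level of Rbm25 RNA, so the depletion itself could not be checked.

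Most of the genes appeared in no other list. Over the 8 lists together 1000 genes had a site. Of these, 274 (27.4%) held one of the regions, and 208 (20.8%) held one and had no site in the other 7 lists. The 208 were 75.9% of the 274 (70.4 to 80.9%). The regions also lay far from the sites of other lists, with a median gap of 260407 bp. A gap over 1000 bp was found at 385 of the 399 (96.5%, 94.2 to 98.1%), a gap over 100000 bp at 256 and one over 1000000 bp at 111. Few of the regions were therefore the edge of a site that another list had placed a little to the side. Absence of overlap is the rule itself, so the gaps and the 208 genes follow from it in part. Gaps of other sets were not measured.

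The regions nearest to a site of another list lay in Bsg (basigin, 21 bp away, fold 3.39), Sephs2 (25 bp, fold 456), Ccni (cyclin I, 38 bp, fold 233), a gene with a predicted name (139 bp) and Serbp1 (an mRNA-binding protein, 309 bp, fold 73.5). In each case the neighbour belonged to the same gene. On the other side, the sites left out for the smallest overlap lay in Nfx1 (10 bp, fold 18.6), Hnrnpul1 (10 bp, 10.6), Ttc37 (11 bp, 92.7), Cep41 (11 bp, 588) and Sf3b3 (11 bp, 86.8). These 5 were short sites, and each lay wholly within sites of other lists.

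The genes with the most regions were of unrelated kinds. Nucb1, a calcium-binding protein of the Golgi, held 5 regions with folds of 325 to 917 over 16137 bp, and no other list had a site in it. Cdon, a co-receptor for Hedgehog ligands, held 4 (224 to 1392). Supt5, a transcription elongation factor, held 4 (50.6 to 514). Both depleted IgG lists also had 2 sites each in Cdon, at folds of up to 26.5 and 27.9.

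Dars, the cytosolic aspartyl-tRNA synthetase, held 4 regions with folds of 201 to 336, and control IP 1 and 2 had other sites in it at folds of up to 1502 and 1158. Col27a1, a fibrillar collagen of cartilage, held 4 (29.8 to 249). Epyc encodes epiphycan, a small proteoglycan of cartilage and of the cochlea, and held 4 regions with folds of 6.71 to 12.04. Dars was thus listed by control IP libraries at other positions, whereas Nucb1 was not. At those same positions in Dars, control IgG 1 and 2 also listed sites, at folds of up to 104 and 50.6. Depleted IgG 1 and 2 listed them at up to 310 and 307. In Col27a1 the control sites were mainly IgG sites, at folds of up to 14765 and 9322 in control IgG 1 and 2. Control IP 2 had 1 site in Col27a1 at a fold of 10, and control IP 1 had none.

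Among genes with 3 regions, the highest folds were in Fam213a, Ubash3b, Smndc1 and Lrch4. Fam213a, a peroxiredoxin-like protein, spanned the widest range of all, 156 to 4498. Ubash3b, a phosphatase that dampens tyrosine kinase signalling, had folds of 1979.6 to 3160.4. Smndc1, a splicing factor related to the survival motor neuron protein, had 397 to 3108, and Lrch4, a leucine-rich repeat protein, had 163 to 909.

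**Figure D3:**
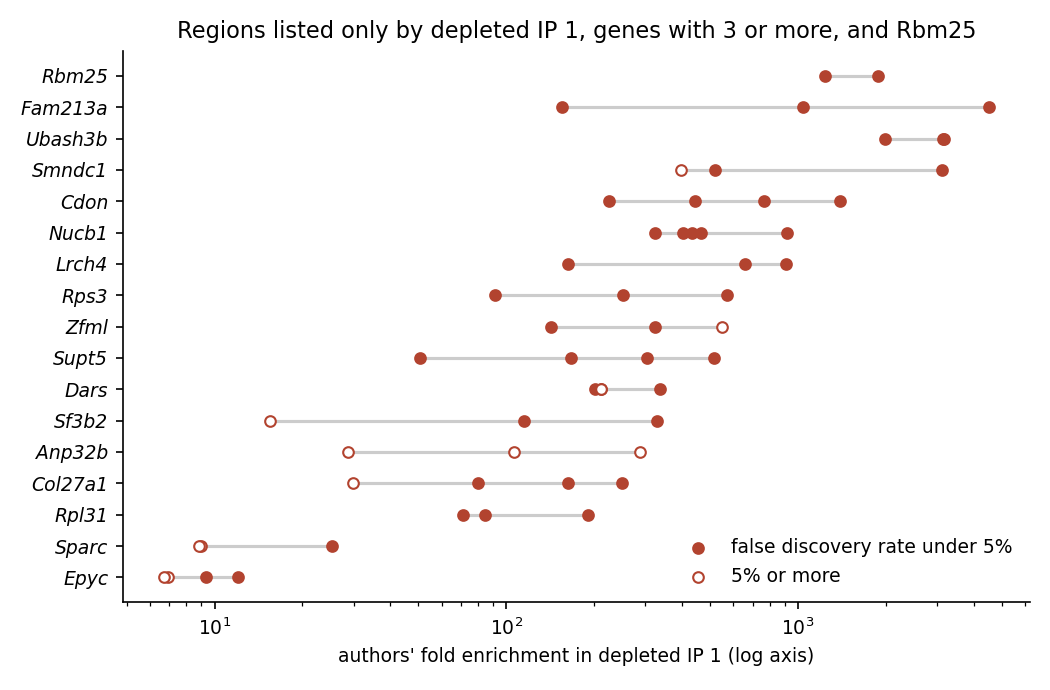
The authors' fold enrichment (horizontal log axis) of every region listed only by depleted IP 1 in the genes with 3 or more of them, and in Rbm25 (vertical axis, genes). Each point is 1 region, filled where the false discovery rate was under 5%, and the grey line joins the lowest to the highest: Epyc and Sparc sit lowest, and Fam213a reaches from 156 to 4498.

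In all, 172 genes held 1 region, 86 held 2, 10 held 3 and 6 held 4 or 5, so that 102 genes held 227 of the 399. Regions of 1 gene come from 1 transcript population in 1 library and are not replicates of each other. Within the 102 genes the highest fold was a median of 1.56 times the lowest. It was within 1.1 times in 28 genes, within 1.5 times in 48 and within 2 times in 68, while in 4 genes it was over 10 times, up to 28.9 times in Fam213a. In 9 genes all folds were identical. The median distance spanned was 2543 bp. Rpl29 was the exception in position, since its 2 regions were on chromosomes 9 and 5, each under the same gene name.

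The 15 regions of highest fold fell in 13 genes. Fam60a, a subunit of the Sin3 histone deacetylase complex, led with 5522 at chr6:148930576-148930650. Fam213a followed at 4498 (chr14:41004041-41004240), and then Snapc1, part of the complex that transcribes small nuclear RNA genes, at 4376 (chr12:73975064-73975161). Ercc2, a DNA helicase of the TFIIH complex, and Atp13a1, a transport ATPase of the endoplasmic reticulum, had the same fold of 4202.

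Ndufs7 held the next 2 regions, the 1 bp region at 4098 and the start region at 4063. Htatsf1, a factor of the U2 snRNP and of transcription elongation, had 4046 (chrX:57058886-57058926). Sat2, of the polyamine acetyltransferase family, had 3959. Cep162, a centriole protein at the base of cilia, held 2 regions at 3820.3 and 3803, which were 780 bp apart by their starts.

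Myh14, a non-muscle myosin heavy chain whose human counterpart is a deafness gene, had 3768 at chr7:44608437-44608545. Ap2a1, a subunit of the clathrin adaptor, had 3629. Tekt1, a tektin of ciliary microtubules, had 3178, and Snrpd2, a core protein of spliceosomal snRNPs, had 3160.4 at chr7:19151218-19151397. All 15 carried a false discovery rate of 1.82%. Of the 13 genes, Fam213a, Atp13a1 and Myh14 also had sites in other lists. Equal folds recurred across genes: 40 fold values were each shared by 2 or more genes, 79 genes in all, and the value 3160.42 stood in Snrpd2, Tekt1 and Ubash3b.

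Gene groups were described by how many of their genes with a site in any list held one of the regions, beside the 27.4% over all genes. The largest was the cytosolic ribosomal proteins, with 15 of 27 genes (55.6%), of which 11 had no site in another list. The highest fold per gene had a median of 112 over the 15, against 310 over all 274 genes. Rps3, of the small subunit, held 3 regions at 569, 252 and 91.6, and Rps9 held 1 at 367. The other 13 had highest folds from 302 in Rpl23a to 15.2 in Rpl10a. Ribosomal protein genes have many near-identical copies in the genome, and how the authors placed reads that match several is not given in the sources used here, so these assignments are uncertain.

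The genes that splice pre-mRNA were a second group. Of the U1 and core spliceosome list 5 of 10 genes held a region: Snrpd2 at 3160.4, Snrpb, another core snRNP protein, at 2344 and 2205, Rbm25, Sf3b2 and Prpf40b. Of these, 4 had no site in another list, and 3 of the 10 had a control IP site. Among SR proteins, their partners and the CLK kinases, 5 of 19 held one (26.3%), led by Clk1, a kinase of SR proteins, at 355 and Srrm1, a splicing coactivator, at 171 and 86.6. None of the 5 had a site in another list.

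Of 20 hnRNPs, helicases and other RNA-binding proteins 6 held one (30.0%). Ddx17, an RNA helicase, had a region at 279, while control IP 1 and 2 listed other sites in it at folds of 112 and 192 at the highest. Mbnl2, a muscleblind splicing regulator, had 108 and no other site. The shares of the SR and hnRNP lists were close to the 27.4% over all genes.

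In translation factors 2 of 10 held a region. Eif2s2, a subunit of initiation factor eIF2, had folds of 901 and 535. Eif4g2, an eIF4G relative, had 10.95 at a false discovery rate of 34.5%. Histones had 1 of 11, H1f0, a linker histone, at 20.8. Chromatin genes had 3 of 20, led within the list by Mta1, a subunit of the NuRD complex, at 1025 and 1007. Brd8, a bromodomain protein, came next at 41.2 with a false discovery rate of 32.6%. Each of these shares lay below the share over all genes.

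Lists tied to the inner ear had few genes with a site. No hair cell gene held a region, of the 2 with a site in any list. Among supporting cell genes 1 of 6 did, Sox9, a transcription factor of cochlear progenitors and supporting cells, at a fold of 22.5 and a false discovery rate of 6.24%. Of the stereocilia and deafness list 4 of 8 (50%) held a region, namely Myh14, Col9a3, Col2a1 and Col9a1. The last 3 are collagens of cartilage and the tectorial membrane. Only Col2a1 had no site in another list, while Myh14 had sites in 4 other lists and Col9a3 and Col9a1 in 6 each.

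Of collagen and mesenchyme genes 5 of 15 (33.3%) held one. Col1a2, a chain of type I collagen, had folds of 2119.9 and 1696, and Col27a1 reached 249. Vim, Sparc and Otor were the other 3, with Vim at a false discovery rate of 16.4% and Otor at 44.9%. Of the epithelial list 0 of 15 genes held one. The marker lists of other cell types had too few genes with a site to read, with 0 of 2 immune genes, 0 of 1 glial and neuronal gene and 0 of 0 endothelial and melanocyte genes. The lists give sites, not levels, so the labelled cell type could not be checked by expression.

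Cilium and polarity genes had 3 of 13. Ift172, an intraflagellar transport protein, had a region at 472. Ift57, a protein of the same complex, had 2 at 146 with a false discovery rate of 26.65%. Apoptosis genes had 2 of 3, Bcl2, an inhibitor of apoptosis, at 291 and Mdm4, a p53 inhibitor, at 53.0 with a false discovery rate of 59.5%. Cell cycle genes had 1 of 9, the CDK inhibitor gene Cdkn1c at 90.2 and 23.1, and Wnt genes 1 of 5, Rnf43, a ubiquitin ligase that removes Frizzled receptors, at 75.5.

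Oxidative phosphorylation had 1 of 9, Ndufs7. Ubiquitin and proteasome genes had 2 of 21 (9.52%). Scaffold and cytoskeleton genes had 2 of 10, Utrn (utrophin) at 2054 and 411 and Tmsb10, a small actin-binding protein, at 103. Endoplasmic reticulum stress genes had 0 of 7, and Notch genes 0 of 0. The lists are small and not complete, and their counts describe 1 library. Some genes described by their roles above are in none of them and are not counted. Among these are Fam60a, Cep162, Tekt1, mt-Nd2, Epyc, Supt5, Snapc1 and Ercc2, and also Smndc1 and Htatsf1, which the splicing counts thus leave out. Col2a1, Col9a1 and Col9a3 were counted in the stereocilia and deafness list and not among the collagen and mesenchyme genes.

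**Figure D4:**
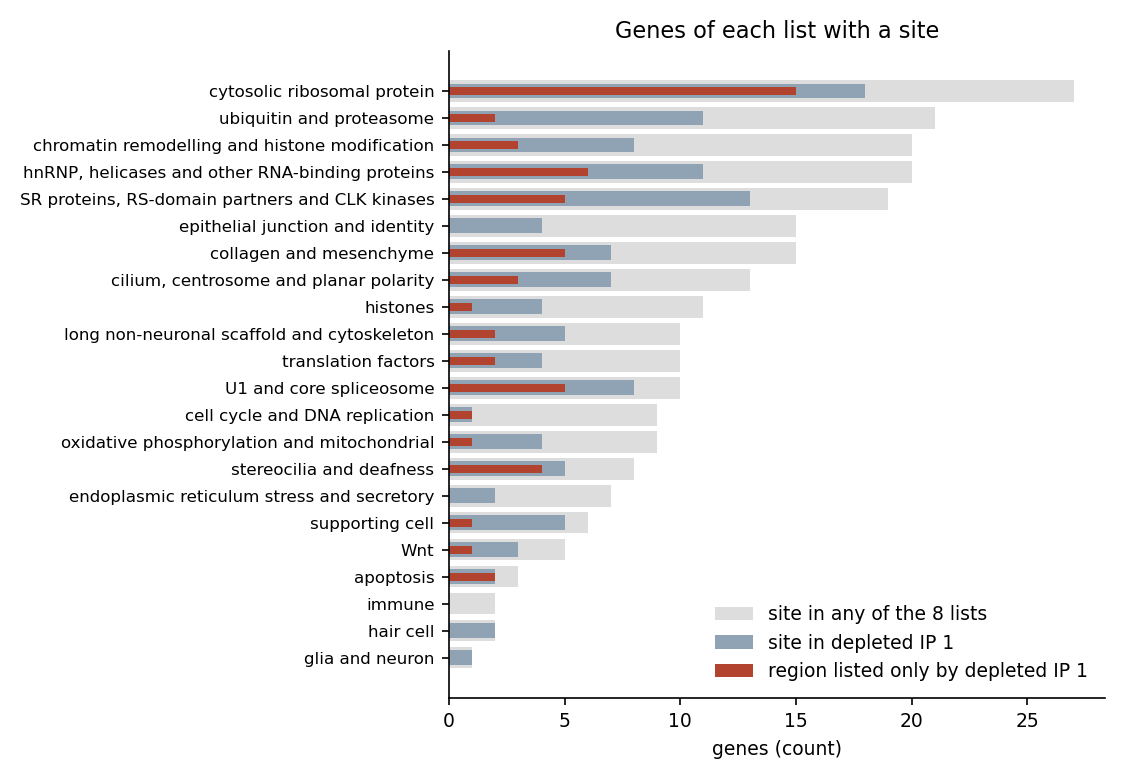
Number of genes (horizontal axis) of each gene list (vertical axis) with a site in any of the 8 lists (light grey), in depleted IP 1 (grey-blue) and with a region listed only by depleted IP 1 (red). The ribosomal protein list has the longest red bar, 15 of 27 genes, and the epithelial list has none of 15.

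The ontology and pathway terms that the authors deposited beside each gene showed the ribosomal genes too. The Ribosome pathway was given to 16 of the 110 genes of these regions with a pathway (14.5%) and to 13 of the 285 other genes (4.56%). Translation was given to 17 of 252 (6.75%) against 17 of 680 (2.50%), and RNA binding to 27 of 254 (10.6%) against 41 of 682 (6.01%). Broad terms differed little, with nucleus at 133 of 258 (51.6%) against 335 of 690 (48.6%). These terms overlap the ribosomal protein list and are no separate evidence.

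In 66 of the 274 genes another list had a site at some other position. A depleted IgG list was the most frequent, with 41 genes in depleted IgG 1 and 44 in depleted IgG 2. Over all 1000 genes these 2 lists had sites in 374 and 378. Control IP 1 and 2 had sites in 27 and 28 (430 and 432 over all genes). Control IgG 1 and 2 had them in 27 and 22 (327 and 318 over all), and depleted IP 2 in 6 (110 over all). Of the 66 genes, 35 had such sites in IgG libraries and no other IP library, and 17 in another IP library and no IgG library. The same split over all genes was not counted. No gene had a site in all 7 other lists.

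Myh14 was one of the genes with IgG sites. Its 2 regions listed only by depleted IP 1 had folds of 3768 and 1129. A second pair of depleted IP 1 sites in the gene, at folds of 608 and 3614, overlapped IgG sites. The IgG folds there were 22.0 in control IgG 1, 14.1 and 16.9 in control IgG 2, 7.41 in depleted IgG 1 and 14.9 in depleted IgG 2, all at a false discovery rate of 100%. Fold depends on each list's own background, so its size in 1 list says nothing of the other.

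Ift172 and Ddx17 were examples with control IP sites. The region of Ift172, chr5:31265352-31265462, lay 770 bp from a site listed by control IP 1 at a fold of 4778, by control IP 2 at 3976 and by depleted IP 2 at 11.3. In Ddx17 the control IP sites, chr15:79543822-79543856 and chr15:79546298-79546507, did not touch the region of depleted IP 1 at chr15:79532998-79533210. In Col9a1 the region listed only by depleted IP 1 had a fold of 15.6, and depleted IP 2 listed a site at 5641 elsewhere in the gene, where control IP 1 and 2 gave 9.17 and 14.4.

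Of the 274 genes, 51 also had a depleted IP 1 site that another list shared. The higher of the 2 kinds was the shared site in 34 genes and the unshared one in 16, and in Ssbp2 both stood at 225. The median of the highest fold was 286 at unshared and 686 at shared sites. In Nav2 the unshared sites reached 2865 and the shared site 69.5, whereas in Col9a1 the shared site stood at 1555 and the unshared one at 15.6.

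Genes shared with the other single-condition sets were counted next. The 264 regions listed by both control IPs and no other lay in 203 genes, 20.3% of the 1000, and 14 genes were in both sets, 5.11% of the 274 and 6.90% of the 203. The regions listed only by depleted IP 2 lay in 56 genes, 5.6% of the 1000, and 2 were shared, 0.730% of the 274 and 3.57% of the 56. The 274 genes themselves were 27.4% of the 1000.

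Of 391 regions whose gene was in the RefSeq table, 382 (97.7%) lay inside it, and 314 could be placed along it by strand. The median position was 57.1% of the way from the 5′ to the 3′ end, against 68.6% for 322 other sites of depleted IP 1 and 68.0% for 209 regions of both control IPs. With each gene split into 10 equal parts, parts 4 to 7 held 123 of 314 (39.2%), against 90 of 322 (28.0%) and 63 of 209 (30.1%). Within these, part 7 ran the other way, at 7.64% against 9.32% and 11.5%. The last part held 67 (21.3%), 86 (26.7%) and 46 (22.0%), and the first 48 (15.3%), 43 (13.4%) and 28 (13.4%). Median gene length moved with these values, at 21960 bp for genes of the regions against 26331 and 27576.5 bp, and its part in the difference was not tested.

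**Figure D5:**
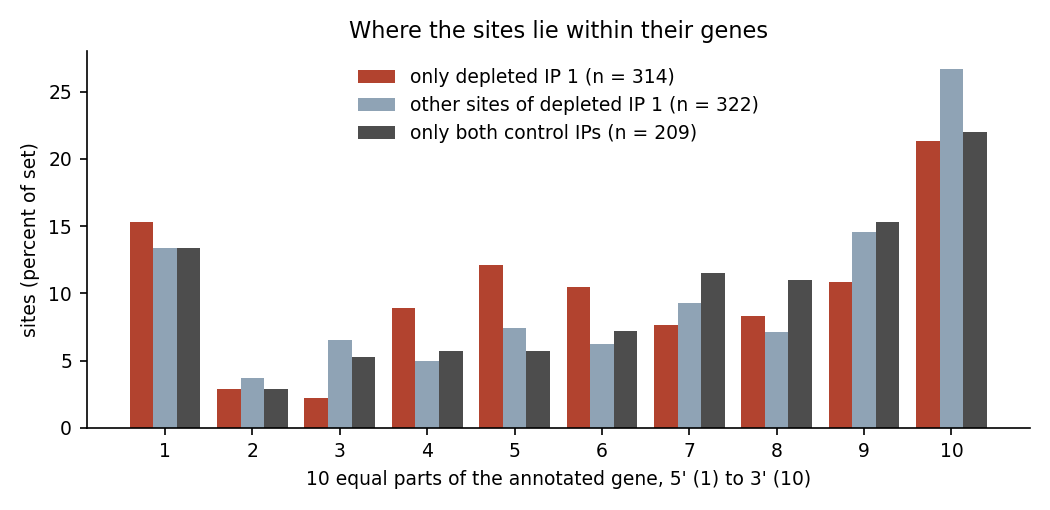
Share of sites (vertical axis, percent of each set) in each of 10 equal parts of the annotated gene from 5′ to 3′ (horizontal axis), for regions listed only by depleted IP 1 (red, n = 314), other depleted IP 1 sites (grey-blue, n = 322) and regions of both control IPs only (dark grey, n = 209). All 3 sets are highest in the last part, and the red bars are the tallest of the 3 in parts 1 and 4 to 6.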

How the data were processed

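RNA from RBM25 or IgG immunoprecipitates of mouse inner ear organoids was sequenced, and 12 deposited lists of sites, 1 per library, were used. Trimming and alignment tools were cutadapt 1.9.3 and HISAT2 2.0.4, with build mm8, per the submitters' processing notes. The coordinates fitted GRCm38 instead, so they are printed as such and no mm8 interval was compared. Peak identifiers start with the name MACS, per the file headers and rows, while its version and background library were not given in the sources used here. Fold enrichment is the authors' ratio over that background. The score is 10 times the negative log10 of the caller's p, and the false discovery rate is in percent, both deposited by the authors. Position and width in bp are the authors' other deposited values. These per-peak values are the authors' own and were used only to describe and rank sites within a list.

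From the lists, sites of the 8 IP and IgG lists were merged at an overlap of 1 bp or more (Python 3.11.15, pandas 2.3.3), and the merging was tested on simulated sites. Shares carry 95% Clopper-Pearson intervals (SciPy 1.17.1), which cover counting only. No test was run, because the lists chose the regions. The members and the 24 gene lists were chosen with earlier results of these data known. Named genes are Rbm25, the 10 genes with most regions, the 15 regions of highest fold, 2 per gene list (some are not reported here) and the 5 on each side of the threshold. Genes named otherwise, and the 5 printed sequences, were chosen after their values were seen. Predicted gene names, 11 of 274, are not named. Exon, intron and strand of the sites were not analysed here.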

Additional observations from a re-analysis of the deposited data

How the results depend on the processing

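Of 80 values recomputed under alternatives, 74 kept within 1.5 times the reported count, or within the interval of the reported median or share. The other 6 moved, and counts and shares of this kind have no direction to reverse. With only sites of 100 bp or more, 221 regions remained in place of 399, with 160 sites under a false discovery rate of 5%, a median fold of 223.7 (in place of 305) and 205 distinct folds in place of 342; fewer sites enter by construction. With sites below their own list's median fold removed, 283 regions in 195 genes remained, which the limit of 1.5 times still counts as kept. The median fold was then 967, which follows by construction. Counting genes in place of regions gave 208. Leaving out each of the other 7 lists in turn gave 400 to 415 regions, 274 to 284 genes, 208 to 216 genes with no site elsewhere, 304 to 320 sites under 5%, a median fold of 304 to 316, 96.1 to 96.8% of regions over 1000 bp from another list's site, and 342 to 356 distinct folds. A region of the set stays in it when another list is left out, so these counts of regions, genes, sites and distinct folds could not fall. Many of the 80 values come from leaving out 1 list, and depleted IP 1 itself cannot be varied in this way. No paired analysis was possible because the results come from no test. Merging by strand was not run because the lists give no strand. Depth is unknown, the whole set rests on 1 library, and its replicate listed none of these regions, so no spread between replicates can be given. A region that another library does not list may still hold reads there.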

Other observations

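Regions of several neighbouring genes occurred close together. When genes with such regions were chained within 500000 bp, chains of 4 genes included Bsg, Rnf126, R3hdm4 and Ndufs7 on chromosome 10 (6 regions, folds of 3.39 to 4098) and Zfp219, Supt16, Tox4 and Sall2 on chromosome 14 (6 regions, 54.5 to 1177). On chromosome 7, Snrpd2, Ercc2 and Clasrp held 3 regions with folds of 2835 to 4202. These genes were chosen after their values were seen, and gene density was not compared.

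Some of the fold values of depleted IP 1 of 500 or more were whole multiples of 1 step. A step of 17.365 was fitted on the 414 shared sites. Of the shared sites with a fold of 500 or more, 52 of 200 (26%) were whole multiples of it within 0.02 of a step, and of the 399 sites listed only there, 69 of 147 (46.9%) were. The median share over other steps was 4.08%.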
